A study of Homo sapiens with 15 samples.

Results

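WNT feedback targets are genes that the WNT pathway switches on and whose products act back on the same pathway. The 10 members described here were AXIN2, SP5, DKK1, LEF1, NKD1, NOTUM, APCDD1, RNF43, ZNRF3 and TCF7. They were chosen by gene symbol, with no measured value in the rule but with earlier results of these data known. Each symbol had 1 row in a table of 60605 genes. Their counts and FPKM (counts scaled to exonic length and to the library total) were read in bulk RNA-seq of 15 libraries from H1, a wild-type human embryonic stem cell line. The libraries are from cardiac differentiation, and whether they came from 1 course of it is not stated. By the study's methods, all cells received CHIR99021 in a defined medium on day 0. On day 1 this was followed by the same medium with insulin, with no CHIR99021 named.

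Days 0, 1 and 2 were shared, with 1 library each. From day 2 the cultures were divided into 3 arms sampled on days 3, 5, 7 and 10, again with 1 library each. NP-ctrl cells were not passaged and received no further inducer. NP-IWP2 cells were not passaged and were given IWP2 from day 2 to day 4. The passaged cells were lifted with EDTA on day 2, replated in new wells at a lower density and given no WNT inhibitor. The study's text says that the ROCK inhibitor Y27632, which helps lifted cells survive, was added in its later passaging experiments, while the labels do not name it, so its effect and that of lifting and replating cannot be told apart. No group had a second library, so there is no spread between cultures. Single-day ratios are therefore given with exact 95% intervals that cover counting error only, and they have no test. A member is called higher or lower between 2 libraries when log2(FPKM + 1) differed by at least 1.

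As background, WNT ligands bind Frizzled and LRP receptors and so stop the destruction complex from breaking down beta-catenin, which then joins TCF and LEF factors on DNA. CHIR99021 inhibits GSK3, a kinase of that complex, and so acts below the receptors. IWP2 inhibits Porcupine, the enzyme that lipidates WNT ligands before secretion, and so acts above them. Many genes that the pathway switches on encode proteins that restrain it. AXIN2 and SP5 are switched on directly and are widely used as readouts of its activity. In heart formation, WNT activity first favours mesoderm, and its later inhibition favours cardiac fate.

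The members sit at 4 levels of the pathway. Inside the cell, AXIN2 (chr17:65528563-65561648, minus strand) is a scaffold of the destruction complex, and NKD1 (chr16:50548396-50649249, plus strand) binds Dishevelled. Outside the cell, DKK1 (chr10:52314281-52318042, plus strand) is a secreted ligand of LRP receptors that blocks them, and NOTUM (chr17:81952507-81961840, minus strand) is a secreted enzyme that removes the lipid from WNT ligands. APCDD1 (chr18:10454635-10489949, plus strand) is a membrane protein that binds WNT and LRP. At the receptors, RNF43 (chr17:58353676-58417595, minus strand) and ZNRF3 (chr22:28883572-29057488, plus strand) are ubiquitin ligases that remove Frizzled from the surface. In the nucleus, LEF1 (chr4:108047545-108168956, minus strand) and TCF7 (chr5:134114681-134151865, plus strand) carry beta-catenin on DNA, and SP5 (chr2:170715337-170718078, plus strand) is a zinc finger repressor of other WNT targets. All positions are whole protein-coding genes on GRCh38 as the table gives them.

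SP5 and DKK1 had the highest levels of the members on day 1, so the stretches of their promoters that hold TCF/LEF-like words are shown. Both come from RefSeq on GRCh38.p14, lie upstream of the gene start and read 5′ to 3′ along the plus strand, which is the coding strand of both genes. Capitals mark the word CTTTGAA, the word CTTTGAT or the word CTTTGTT, or a reverse complement of one of them. The SP5 stretch is chr2:170715139-170715309 and the DKK1 stretch is chr10:52314136-52314261.
SP5: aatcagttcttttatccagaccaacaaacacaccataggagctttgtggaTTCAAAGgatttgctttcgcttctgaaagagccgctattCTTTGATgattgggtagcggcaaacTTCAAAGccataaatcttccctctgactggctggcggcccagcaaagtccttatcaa
DKK1: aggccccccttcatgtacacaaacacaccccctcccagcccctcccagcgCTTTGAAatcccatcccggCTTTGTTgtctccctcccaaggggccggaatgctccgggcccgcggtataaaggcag
The SP5 window held CTTTGAT at bases 109 to 103 before the start and the reverse complement of CTTTGAA at bases 148 to 142 and 84 to 78. The DKK1 window held CTTTGAA at bases 95 to 89 and CTTTGTT at bases 76 to 70. RefSeq windows from 250 bases before to 50 bases after a start were at hand for 6 of the 10 members (SP5, DKK1, LEF1, TCF7, RNF43 and APCDD1), in 8 windows. CTTTGAT on either strand was in 1 of the 8, that of SP5, and in 2.62% of all 35116 windows. Any of 4 words on either strand, CTTTGTA and the 3 above, a search chosen after the windows were seen, was in 3 of the 8 (SP5, DKK1 and 1 of TCF7) and in 13.8% of all windows. A match is a match of letters only, and its absence says only that these letters are not in the window.

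Total counts ranged from 13254723 to 20250115 per library. The mitochondrial share of counts was 1.53% in the passaged day 3 library and 10.3% in the passaged day 10 library, against 3.71% to 6.14% in the other 13. The summed FPKM of the pluripotency markers POU5F1, NANOG and SOX2 was 760 on day 0, and that of the cardiac markers TNNT2, NKX2-5, MYH6 and MYL7 reached 413 on day 10 for NP-ctrl, 1301 for NP-IWP2 and 3223 for passaged cells. At the same time the endoderm markers SOX17, FOXA2 and AFP summed to 2371, 719 and 0.37, with FOXA2 at 0 in passaged cells. AFP made up nearly all of this sum in NP-ctrl, at 2366 FPKM, and in NP-IWP2, at 716. SOX17 went the other way between these arms, at 1.14 and 1.91. The mesenchyme markers COL3A1 and POSTN summed to 2398, 636 and 68.1. All 15 libraries are bulk, so fewer cells of a type and less RNA per cell cannot be told apart.

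The first question is how the members responded to CHIR99021. On day 1, 8 of the 10 were higher than on day 0 and none was lower by the same rule, while 3.26% of all 21206 genes that reached 1 FPKM in any library were higher and 3.48% were lower. The 8 were AXIN2, SP5, DKK1, LEF1, NKD1, NOTUM, APCDD1 and TCF7. The median difference of the 10 members was 2.43 on the log2(FPKM + 1) scale, and that of all genes past the filter was 0.00. No culture that never received CHIR99021 is among the libraries of days 1 and 2. The effects of CHIR99021, the change of medium and time therefore cannot be told apart. The members were chosen with earlier results of these data known, so the share of all genes beside them is a description and no test.

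**Figure D1:**
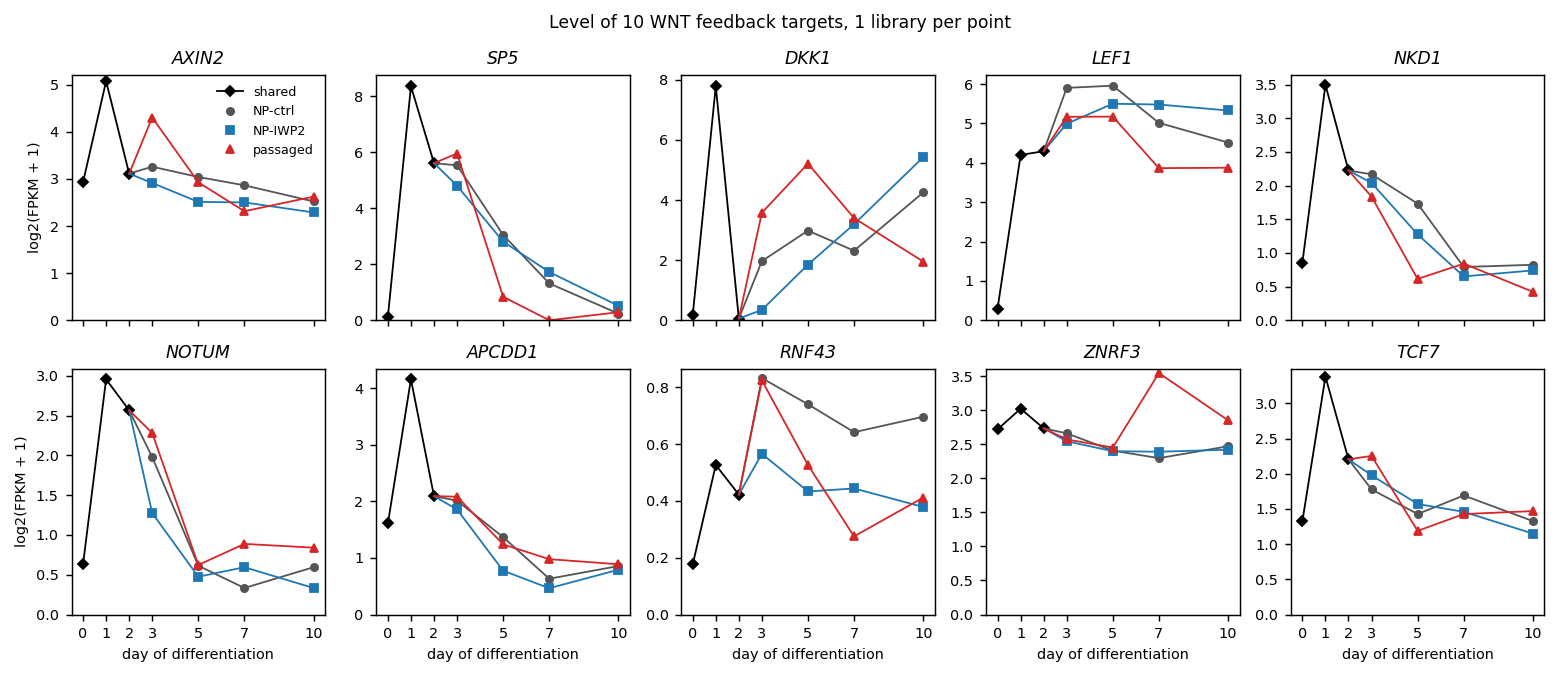
Level of each of the 10 members, as log2(FPKM + 1), against the day of differentiation, with 1 library per point and no error bar. Black diamonds are the shared libraries of days 0 to 2, grey circles NP-ctrl, blue squares NP-IWP2 and red triangles passaged cells; each panel has its own vertical scale from 0. SP5, DKK1 and AXIN2 peak on day 1, LEF1 stays high after day 1, and ZNRF3 is highest in passaged cells on day 7.

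SP5 went from 0.09 FPKM (3 counts) on day 0 to 325 FPKM (12440 counts) on day 1 and 47.7 FPKM (2004 counts) on day 2. Day 1 was 3817-fold above day 0 (95% interval 1306 to 18510, set mainly by the 3 counts), and day 2 was 6.82-fold below day 1 (6.50 to 7.15). On day 1 SP5 ranked 60 among 19942 protein-coding genes by FPKM and made up 50.4% of the summed FPKM of the members.

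DKK1 went from 0.13 FPKM (5 counts) to 220 FPKM (9000 counts) and back to 0.04 FPKM (2 counts) over the same 3 days. The rise was 1657-fold (710 to 5104) and the drop 4942-fold (1368 to 40816), so that of the 10 members DKK1 alone was below its day 0 level on day 2, by a ratio of 0.335 whose interval of 0.0319 to 2.05 includes 1. Its level on day 1 ranked 105 among protein-coding genes. The other secreted inhibitor, NOTUM, was at 0.55 FPKM on day 0, 6.76 on day 1 and 4.92 on day 2. NOTUM was 12.4-fold (8.36 to 19.0) above day 0 on day 1, and day 2 was 1.37-fold (1.17 to 1.61) below day 1. APCDD1 was at 2.05, 16.8 and 3.26 FPKM, a rise of 8.18-fold (7.08 to 9.49) followed by a drop of 5.16-fold (4.62 to 5.76).

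Of the members that act inside the cell, AXIN2 had FPKM values of 6.63, 32.8 and 7.66 on days 0, 1 and 2. Its level on day 1 was 4.95-fold (4.53 to 5.41) above day 0, and day 2 was 4.28-fold (3.96 to 4.63) below day 1. NKD1 was at 0.81, 10.3 and 3.67 FPKM. NKD1 was thus 12.7-fold (11.1 to 14.5) higher on day 1 and still 4.52-fold (3.94 to 5.22) above day 0 on day 2, whereas AXIN2 was then 1.16-fold (1.04 to 1.29) above it.

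LEF1 and TCF7 parted on day 2. LEF1 was at 0.23 FPKM (21 counts) on day 0, 17.4 on day 1 and 18.6 on day 2, a rise of 75.3-fold (49.1 to 122) with no drop afterwards. TCF7 was at 1.51, 9.41 and 3.61 FPKM, a rise of 6.22-fold (5.46 to 7.12) and then a drop of 2.61-fold (2.39 to 2.84). LEF1 was the single member above its day 1 level on day 2, by 1.07-fold with an interval of 1.00 to 1.14. The FPKM of LEF1 was below that of TCF7 on day 0 and above it on days 1 and 2. On day 1 their counts were 1717 and 1751, so that day's order rests on exonic lengths of 5361 and 10093 bases.

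The receptor ligases were the 2 members not called on day 1. RNF43 was at 0.13, 0.44 and 0.34 FPKM, with 14, 51 and 43 counts, and reached at most 0.78 FPKM in any of the 15 libraries. RNF43 shares 68.4% of its exonic bases with a second gene model, so its FPKM may be understated. Its ratio of 3.35 on day 1 (1.83 to 6.56) was not a difference of 1 on the log2(FPKM + 1) scale. ZNRF3 was already at 5.58 FPKM on day 0, was at 7.12 on day 1 and at 5.65 on day 2, ratios of 1.27 (1.15 to 1.41) and 1.01 (0.913 to 1.12) to day 0.

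Against day 1, 6 of the 10 members were lower on day 2 and none was higher, with 2.66% of all genes lower and 4.34% higher. The 6 were AXIN2, SP5, DKK1, NKD1, APCDD1 and TCF7, and the members' median difference was -1.22 against 0.00 for all genes past the filter. Against day 0, 4 members were still higher on day 2 (SP5, LEF1, NKD1 and NOTUM) and none was lower, with 6.57% of all genes higher and 5.17% lower. These 3 comparisons share their libraries pairwise. Between days 1 and 2 the effects of the end of CHIR99021, the insulin and time cannot be told apart. The 10 members summed to 17.7, 646 and 95.5 FPKM on days 0, 1 and 2.

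**Figure D2:**
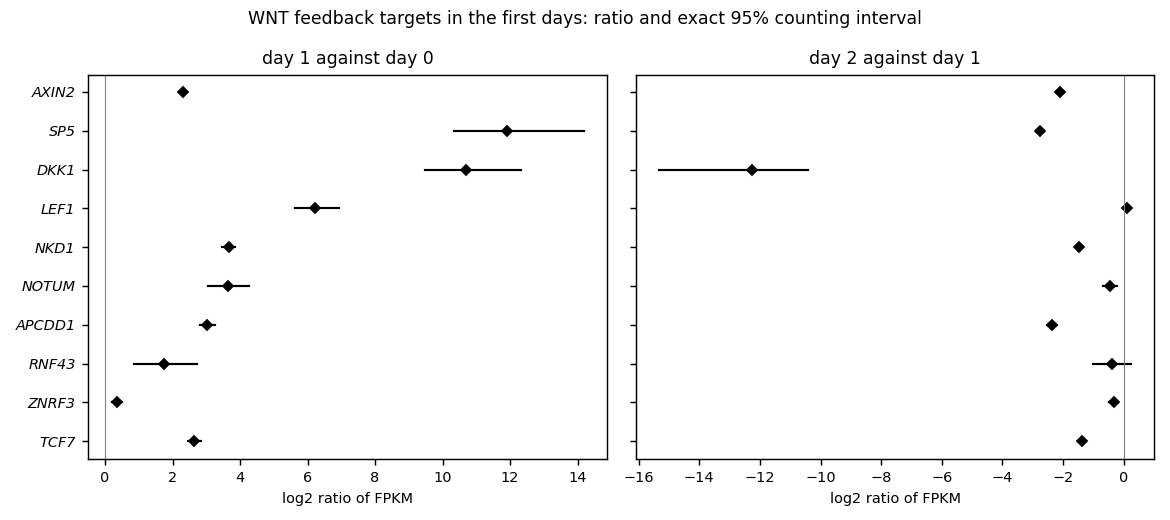
Log2 ratio of FPKM for each member on day 1 against day 0 (left) and on day 2 against day 1 (right), with bars for the exact 95% counting interval and a line at 0 for no difference. All 10 points lie to the right of 0 on the left, and all but LEF1 lie to the left of 0 on the right. DKK1 has a wide interval on the right because it had 2 counts on day 2.

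Other genes of the pathway were read in the same libraries. Of 29 core components, which carry or transmit the signal, 1 was higher and 5 were lower on day 1 than on day 0, with a median difference of 0.08 on the log2(FPKM + 1) scale. WLS, the carrier of WNT ligands to the surface, was the one that rose, from 0.17 to 26.7 FPKM. The 3 that dropped most were the TCF factor TCF7L2, from 6.66 to 1.57 FPKM, and the co-repressors TLE1, from 40.8 to 13.2, and TLE2, from 4.70 to 1.22. CTNNB1, which encodes beta-catenin itself, was at 48.7 FPKM on day 1 and 42.1 on day 0. Of 18 other genes reported as WNT targets, 8 were higher and 1 was lower, with a median of 0.85. DKK4, a relative of DKK1, led them with 0 counts on day 0 and 241 FPKM (3975 counts) on day 1, followed by 9.09 FPKM on day 2. TBXT, a primitive streak factor, went from 0.18 to 214 FPKM, and CDX1, a factor of posterior identity, from 0.10 to 30.2. MYC went the other way, from 23.7 to 9.29 FPKM.

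**Figure D3:**
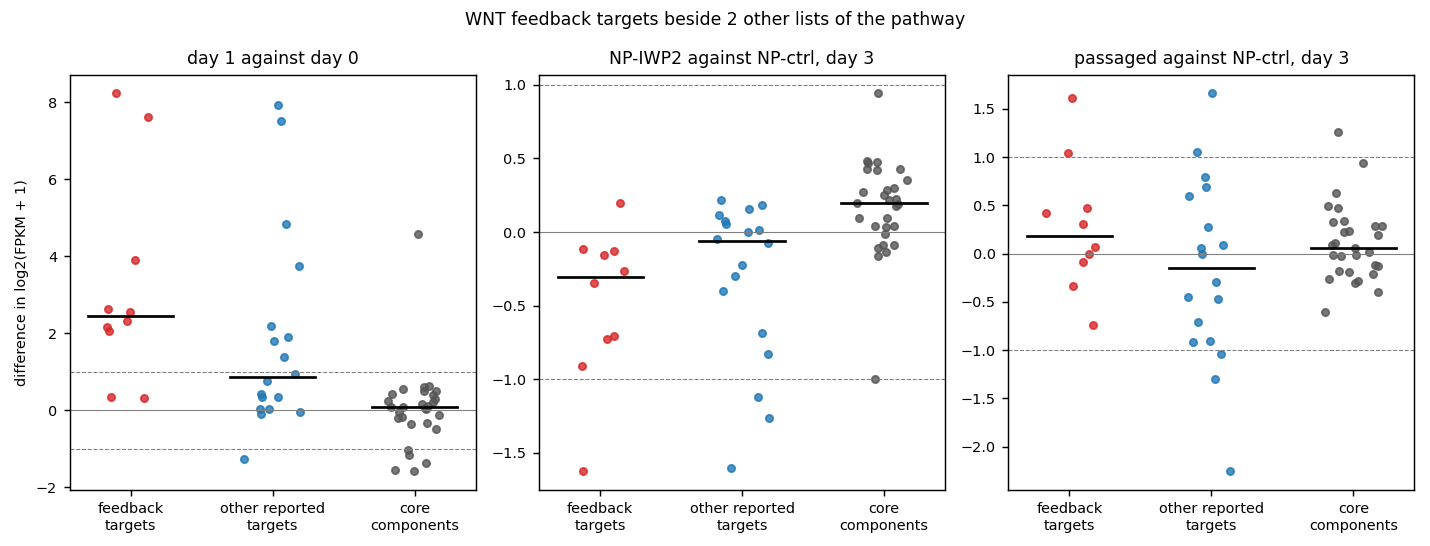
Difference in log2(FPKM + 1) of each member (red), of 18 other reported WNT targets (blue) and of 29 core components (grey), 1 point per gene and 1 library on each side of every comparison. Black bars are list medians, and dashed lines mark the difference of 1 used as a call. On day 1 against day 0 the medians are 2.43, 0.85 and 0.08, and for NP-IWP2 against NP-ctrl on day 3 they are -0.31, -0.06 and 0.20.

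The next question is what each arm did on its first day. From day 2 to day 3, 2 members were higher in NP-ctrl (DKK1 and LEF1; 4.36% of all genes higher, 4.35% lower), 1 was lower in NP-IWP2 (NOTUM; 6.06% of all genes higher, 2.92% lower) and 2 were higher in passaged cells (AXIN2 and DKK1; 6.78% of all genes higher, 5.00% lower), and none moved the other way. The 3 comparisons share the day 2 library. AXIN2 was 1.12-fold (1.01 to 1.24) above day 2 in NP-ctrl, 1.17-fold (1.04 to 1.31) below it in NP-IWP2 and 2.45-fold (2.24 to 2.68) above it in passaged cells.

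IWP2 and NP-ctrl were then compared, which asks what blocking ligand secretion did to the members in cells left in place. On day 3, 9 of the 10 members had the lower value in NP-IWP2, with TCF7 as the exception at a ratio of 1.21 (1.05 to 1.40). By the call rule 1 was lower (DKK1) and none was higher, where 0.858% of all genes were lower and 3.29% higher. The members' median difference was -0.31, and the median of all genes past the filter was 0.06. In these same libraries the 9 of 10 split was also found with median-of-ratios scaling, with TPM and without mitochondrial genes. The member medians were then -0.39, -0.33 and -0.31.

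DKK1 was at 2.91 FPKM (105 counts) in NP-ctrl and 0.27 FPKM (8 counts) in NP-IWP2 on day 3, which is 10.9-fold lower (5.33 to 25.9). NOTUM was at 2.94 and 1.42 FPKM, 2.06-fold lower (1.5 to 2.86), and LEF1 at 58.9 and 30.8 FPKM, 1.91-fold lower (1.82 to 2.01). SP5 was at 45.1 and 26.9 FPKM, 1.68-fold lower (1.54 to 1.84). RNF43 was 1.62-fold lower (1.10 to 2.42) and AXIN2 1.31-fold lower (1.17 to 1.48). The intervals of APCDD1 (ratio 0.866, 0.722 to 1.04) and ZNRF3 (ratio 0.909, 0.803 to 1.03) included 1.

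Of the 29 core components none passed a difference of 1 on day 3, with a median of 0.20, and of the 18 other targets 3 were lower (BAMBI, CDX1 and CDX2). BAMBI, a decoy receptor of the TGF-beta family, was at 142 FPKM in NP-ctrl and 46.1 in NP-IWP2. WLS, at 81.9 and 40.5 FPKM, lay just under a difference of 1. The early mesoderm markers MESP1 and TBX6 summed to 61.2 FPKM in NP-ctrl and 60.9 in NP-IWP2. The primitive streak markers TBXT, MIXL1 and EOMES summed to 40.6 and 108. MIXL1, at 22.3 and 58.3, and EOMES, at 15.3 and 46.8, made this difference, while TBXT was at 3.03 and 2.9. The part of these markers in the differences of the members was not tested.

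On day 5, 9 of 10 members again had the lower value in NP-IWP2, with TCF7 the exception. The members' median difference was -0.38, and the median of all genes past the filter was 0.00. By the call rule 1 member was lower (DKK1), where 1.42% of all genes were higher and 1.55% lower. DKK1 was at 6.90 FPKM in NP-ctrl and 2.61 in NP-IWP2, 2.64-fold lower (2.05 to 3.44). APCDD1 was 2.21-fold lower (1.63 to 3.04), NKD1 1.64-fold lower (1.43 to 1.87), AXIN2 1.54-fold lower (1.35 to 1.76) and LEF1 1.38-fold lower (1.32 to 1.44). RNF43 had a ratio of 0.520 (0.328 to 0.809). The intervals of SP5 (ratio 0.826, 0.676 to 1.01), NOTUM (ratio 0.739, 0.367 to 1.45), ZNRF3 (ratio 0.993, 0.868 to 1.13) and TCF7 (ratio 1.17, 0.983 to 1.38) included 1. On day 7 no member was called in either direction (2.99% of all genes higher, 4.28% lower). On day 10, 1 member was higher (DKK1; 3.71% of all genes higher, 5.64% lower).

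For DKK1, LEF1, SP5 and TCF7 the order of NP-ctrl and NP-IWP2 turned between the early and the late days. DKK1 was at 2.91, 6.90, 3.97 and 18.0 FPKM on days 3, 5, 7 and 10 in NP-ctrl, and at 0.27, 2.61, 8.16 and 41.9 in NP-IWP2. NP-IWP2 was thus the lower of the pair on days 3 and 5 and the higher on day 7, by 2.05-fold (1.65 to 2.57), and on day 10, by 2.32-fold (2.10 to 2.57). LEF1 was at 58.9, 61.2, 31.3 and 21.9 FPKM in NP-ctrl and 30.8, 44.3, 43.6 and 39.2 in NP-IWP2, so that its ratio went from 0.524 and 0.723 on days 3 and 5 to 1.39 (1.32 to 1.47) and 1.79 (1.69 to 1.91) on days 7 and 10. SP5 went the same way, from ratios of 0.595 (0.545 to 0.650) and 0.826 to 1.54 (1.04 to 2.31) and 2.38, where the intervals on days 5 and 10 included 1. TCF7 went the other way, from 1.21 on day 3 to 0.787 (0.667 to 0.929) on day 7 and 0.808 (0.661 to 0.988) on day 10. AXIN2 kept 1 order throughout, with 8.59, 7.24, 6.29 and 4.75 FPKM in NP-ctrl and 6.55, 4.71, 4.67 and 3.89 in NP-IWP2. The cardiac, mesenchyme and endoderm markers also differed between these arms on day 10, by the sums given above, and their part in the late values was not tested.

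**Figure D4:**
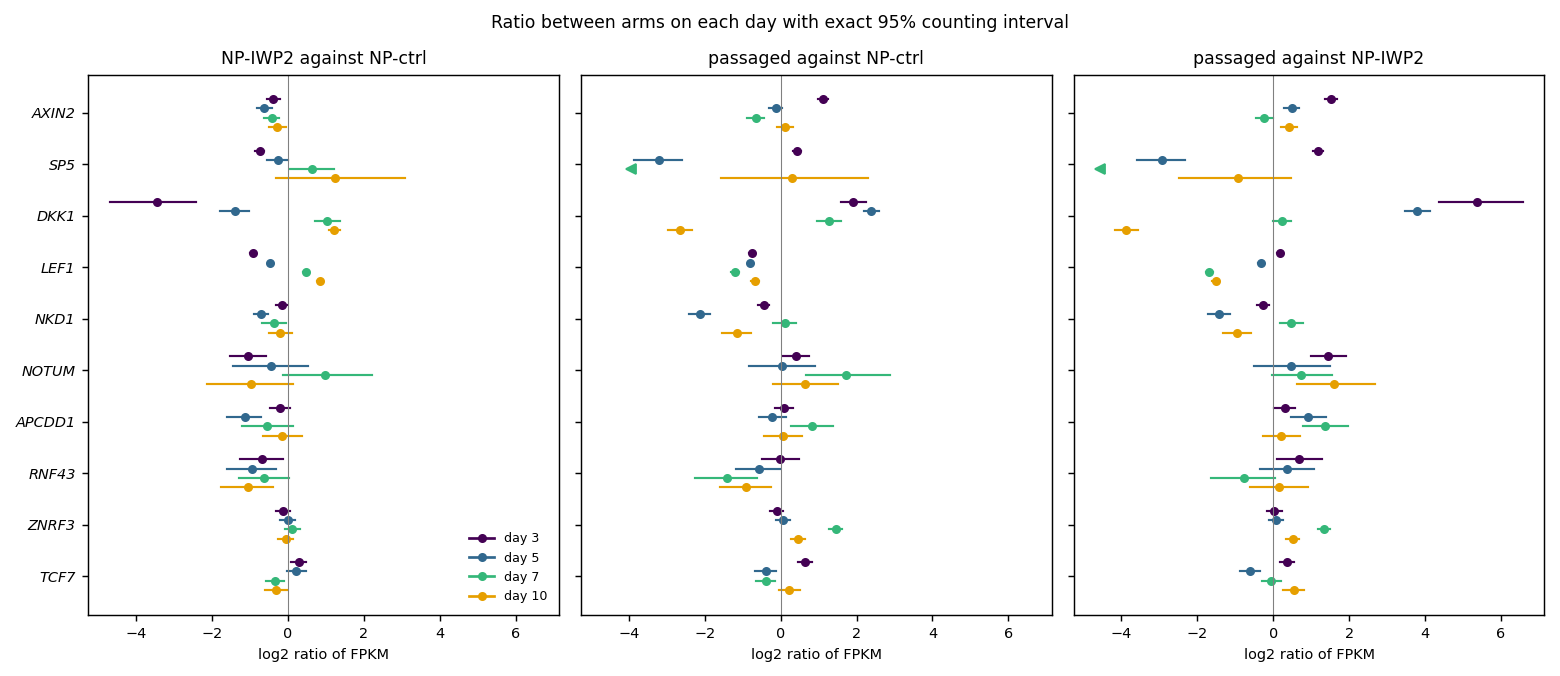
Log2 ratio of FPKM between arms for each member on days 3, 5, 7 and 10, with bars for the exact 95% counting interval, 1 library on each side. Left-pointing triangles mark SP5 on day 7, with 0 counts in passaged cells, at the largest value that the limit of 3 counts allows. In NP-IWP2 against NP-ctrl, between days 5 and 7, DKK1, LEF1 and SP5 go from below to above the line of no difference and TCF7 from above to below. The intervals of SP5 and TCF7 on day 5 include this line. NOTUM and ZNRF3 cross it with intervals that include it on both days. In passaged cells against either other arm DKK1 goes from above to below the line between days 7 and 10, though its day 7 interval against NP-IWP2 includes the line.

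Passaged cells and NP-ctrl were compared next, which asks what passaging did to the members when no WNT inhibitor was given. On day 3, 2 members were higher (AXIN2 and DKK1) and none was lower, with 5.02% of all genes higher and 3.48% lower. AXIN2 was at 8.59 FPKM (730 counts) in NP-ctrl and 18.8 FPKM (1343 counts) in passaged cells, 2.19-fold higher (2.00 to 2.39), and this was its highest level after day 1. DKK1 was at 2.91 and 10.9 FPKM, 3.76-fold higher (3.01 to 4.72). The 18.8 FPKM of AXIN2 also lay above the 6.55 of NP-IWP2, by 2.87-fold (2.58 to 3.19).

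The other members split on that day. TCF7 was 1.56-fold (1.36 to 1.78), SP5 1.35-fold (1.26 to 1.44) and NOTUM 1.32-fold (1.04 to 1.67) higher in passaged cells. LEF1, at 58.9 FPKM in NP-ctrl and 34.96 in passaged cells, was 1.68-fold lower (1.61 to 1.77), and NKD1 was 1.36-fold lower (1.23 to 1.5). The passaged day 3 library was the one with the lowest mitochondrial share, and its early mesoderm markers summed to 3.60 FPKM against 61.2 in NP-ctrl. With mitochondrial genes taken out of the totals, AXIN2 and DKK1 remained past a difference of 1 on day 3, and with median-of-ratios scaling AXIN2 was at 0.93. The part of the marker difference was not tested.

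Among the core components WLS was higher in passaged cells on day 3, at 198 FPKM against 81.9 in NP-ctrl, and none was lower. Of the other targets, PRICKLE1 and TNFRSF19 were higher and LGR5, CDX2 and TBX3 were lower. LGR5, a receptor for R-spondins that hold RNF43 and ZNRF3 in check, had 31.0 FPKM in NP-ctrl and 5.72 in passaged cells, with NP-IWP2 between them at 23.3.

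SP5 then dropped fastest in passaged cells. It was at 45.1, 7.26, 1.49 and 0.18 FPKM on days 3, 5, 7 and 10 in NP-ctrl, at 26.9, 6.0, 2.30 and 0.43 in NP-IWP2, and at 60.8, 0.79, 0.00 and 0.22 in passaged cells. Passaged cells thus had the highest SP5 of the 3 arms on day 3 and the lowest on day 5, when they were 9.20-fold (6.08 to 14.5) below NP-ctrl and 7.60-fold (4.98 to 12.1) below NP-IWP2. On day 7 no SP5 count was seen in passaged cells, where NP-ctrl had 41 and NP-IWP2 had 77. With 3 counts as the limit in the passaged library and the other counts taken as measured, this is at least 15.5-fold lower and at least 23.8-fold lower. The exact intervals, which also cover the counting error of the other library, begin at 12.01-fold and 18.89-fold lower. By day 10 all 3 arms were at 5 to 14 counts, and the intervals of their ratios included 1.

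NKD1 was also lowest in passaged cells on day 5, but not on day 7. It was at 3.49, 2.32, 0.73 and 0.77 FPKM on days 3, 5, 7 and 10 in NP-ctrl, at 3.11, 1.42, 0.57 and 0.67 in NP-IWP2, and at 2.57, 0.53, 0.79 and 0.34 in passaged cells. Passaged cells were 4.39-fold (3.65 to 5.31) below NP-ctrl on day 5. On day 7 they had the highest value, 1.39-fold (1.12 to 1.72) above NP-IWP2 and at a ratio of 1.08 to NP-ctrl whose interval of 0.875 to 1.33 included 1.

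DKK1 was higher in passaged cells on day 5, at 36.0 FPKM where NP-ctrl had 6.90 and NP-IWP2 had 2.61, ratios of 5.22 (4.54 to 6.02) and 13.8 (11 to 17.5). By day 10 the order had turned, and passaged cells, at 2.87 FPKM, were 6.28-fold (5.05 to 7.88) below NP-ctrl and 14.6-fold (11.9 to 18.1) below NP-IWP2. On day 7 passaged cells had 9.55 FPKM, 2.40-fold (1.94 to 3.00) above NP-ctrl, and their ratio of 1.17 to NP-IWP2 had an interval of 0.996 to 1.38, which includes 1. Passaged cells thus had the highest DKK1 of the 3 arms on days 3 and 5 and the lowest on day 10.

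LEF1 lay below its NP-ctrl level in passaged cells on all 4 days, with 34.96, 35.07, 13.6 and 13.7 FPKM, at ratios of 0.594, 0.573, 0.433 and 0.625. Against NP-IWP2 it was 1.13-fold higher on day 3 and 1.26-fold, 3.22-fold (3.01 to 3.44) and 2.87-fold (2.68 to 3.07) lower on days 5, 7 and 10. ZNRF3 stayed between 3.91 and 7.12 FPKM in 14 libraries and was at 10.7 FPKM (1118 counts) in the passaged day 7 library. It was there 2.73-fold (2.42 to 3.08) above NP-ctrl and 2.52-fold (2.26 to 2.81) above NP-IWP2, and on day 10 it was 1.37-fold (1.21 to 1.55) above NP-ctrl. NOTUM and APCDD1 were also highest in passaged cells on day 7, at 0.85 and 0.97 FPKM, on 37 and 86 counts. On that day the cardiac markers summed to 547 FPKM for NP-ctrl, 2009 for NP-IWP2 and 2655 for passaged cells, and their part in these differences was not tested.

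By the call rule, passaged cells against NP-ctrl had 1 member higher and 2 lower on day 5 (3.74% and 4.42% of all genes), 2 and 2 on day 7 (4.33% and 8.29%), and 0 and 1 on day 10 (5.67% and 11.7%). Against NP-IWP2 the numbers were 4 higher and 0 lower on day 3 (3.65% and 5.05%), 1 and 1 on day 5 (3.49% and 4.02%), 1 and 2 on day 7 (2.31% and 4.38%), and 0 and 2 on day 10 (3.07% and 7.01%). The 4 members higher on day 3 were AXIN2, SP5, DKK1 and NOTUM, led by DKK1 at 40.9-fold (20.5 to 95.6). NOTUM lay just past a difference of 1 and was at 0.99 with median-of-ratios scaling and at 0.98 without mitochondrial genes. These comparisons share their libraries with those of NP-ctrl.

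The mean difference between arms was tested over the 4 days with edgeR's quasi-likelihood test, with day as a block and p-values adjusted over all 21206 genes. RNF43 did not pass the filter of 1 FPKM, so 9 members were tested. None of the 9 was called in any of the 3 contrasts, where 0.0189% of all genes were called for NP-IWP2 against NP-ctrl, 4.40% for passaged against NP-ctrl and 1.33% for passaged against NP-IWP2. DESeq2 and limma also called none of the 9, where DESeq2 called 0.288%, 10.1% and 4.18% of all genes and limma 0.00%, 0.769% and 0.0283%. With no filter, over 41457 genes, edgeR called DKK1, LEF1 and NKD1 for passaged cells against NP-ctrl (6.20% of all genes) and LEF1 for passaged cells against NP-IWP2 (3.30%). Without day 3 it called LEF1 in the latter (3.18%). At an unadjusted p under 0.05 edgeR gave 0, 2 and 5 of the 9 members, and 4.76%, 19.2% and 12.9% of all genes. In passaged cells against NP-ctrl these were LEF1, at a log2 fold change of -0.82 (SE 0.29, edgeR adjusted p = 0.143), and NKD1, at -0.80 (SE 0.32, edgeR adjusted p = 0.201). For passaged against NP-IWP2 they were NOTUM at 1.12 (SE 0.39), LEF1 at -0.83 (SE 0.29), APCDD1 at 0.76 (SE 0.27), AXIN2 at 0.66 (SE 0.25) and ZNRF3 at 0.61 (SE 0.26), with edgeR adjusted p from 0.244 to 0.358. With day as a block, the residual spread in these fits is that of the arm differences from day to day. A difference that turns between days, as that of DKK1 does, therefore counts as spread. The 4 days stand in for replicates here, so the p-values do not measure spread between cultures.

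Whether the arm difference changed from days 3 and 5 to days 7 and 10 was tested as an interaction of arm and period. The residual spread is here that of the arm differences between the days of a period, again not between cultures. Again edgeR called none of the 9 members, where 0.00472%, 3.31% and 0.212% of all genes were called in the 3 contrasts. At an unadjusted p under 0.05 it gave 2, 1 and 3 of the 9 members, and 8.87%, 19.3% and 10.9% of all genes. For NP-IWP2 against NP-ctrl, LEF1 went from -0.76 early to 0.67 late, a change of 1.43 (SE 0.31, edgeR adjusted p = 0.369). DKK1 went from -2.14 to 1.17, a change of 3.31 (SE 1.16, edgeR adjusted p = 0.488). For passaged against NP-ctrl, ZNRF3 went from -0.09 to 1.13, a change of 1.22 (SE 0.34, edgeR adjusted p = 0.0877). For passaged against NP-IWP2, DKK1 went from 4.21 to -1.25, a change of -5.46 (SE 1.22, edgeR adjusted p = 0.123). In the same contrast LEF1 went from -0.08 to -1.46, a change of -1.38 (SE 0.31, edgeR adjusted p = 0.130). ZNRF3 went there from 0.05 to 1.09, a change of 1.04 (SE 0.34, edgeR adjusted p = 0.288). DESeq2 called LEF1 in the first contrast, ZNRF3 in the second and DKK1 and LEF1 in the third, with 0.415%, 7.13% and 2.07% of all genes called.

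The 2 pathway lists were in the same fits. For the mean difference of passaged cells and NP-ctrl, with 4.40% of all genes called, edgeR called 2 of 29 core components, both lower, namely the beta-catenin partner PYGO1 at -0.86 (adjusted p = 0.0118) and the co-repressor TLE3 at -1.07 (adjusted p = 0.0357). It called 4 of 18 other targets, of which LGR5 at -2.69, CDX2 at -4.41 and the Frizzled receptor FZD7 at -1.02 were lower and the DKK1 receptor KREMEN1 at 1.42 was higher, with adjusted p from 0.00791 to 0.0471. FZD7 was also lower in passaged cells than in NP-IWP2, at -1.56 (edgeR adjusted p = 0.0127). It was the only gene of the 2 lists called in that contrast, where 1.33% of all genes were called. Between the early and the late days the difference of passaged cells and NP-ctrl changed for 1 of 29 core components, TLE1 at -2.92 (edgeR adjusted p = 0.0235), and for 1 of 18 other targets, the T-box factor TBX3 at 2.25 (edgeR adjusted p = 0.0280), with 3.31% of all genes called.

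Over the 15 libraries 6 members, picked after their values were seen, moved most alike. On the log2(FPKM + 1) scale Pearson's r was 0.95 between SP5 and NKD1, 0.91 between NKD1 and APCDD1 and 0.90 between AXIN2 and APCDD1. All 15 pairs among AXIN2, SP5, NKD1, NOTUM, APCDD1 and TCF7 lay between 0.81 and 0.95. For LEF1 r ran from -0.41 with ZNRF3 to 0.66 with RNF43 and was -0.01 with AXIN2, and DKK1 had at most 0.39 with any member, AXIN2. The points share 3 early libraries and may come from 1 series of cultures, so the values describe these libraries and carry no p.

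Of 7683 genes with a mean FPKM of at least 5 outside the members, the 3 protein-coding genes most like SP5 were GAD1 (r = 0.97), PRRT1B (0.94) and WNT3 (0.92). Those most like AXIN2 were EVX1 (0.86), PATZ1 (0.85) and FAM53B (0.84), and those most like LEF1 were DDHD2 (0.94), WLS (0.89) and GATA6 (0.88). For DKK1 the closest were CDKN2AIP (0.74), NAPG (0.74) and BLOC1S6 (0.73), below the best value of each of the other 3. WNT3, a ligand of the pathway, was at 1.56, 22.0 and 28.4 FPKM on days 0, 1 and 2.

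Some members share exonic sequence with another gene, and the strand setting of the counting was not stated. TCF7 shares 2.08% of its exonic bases with SKP1 on the opposite strand, which was at 17.2 to 27.5 FPKM. RNF43 shares 68.4% and AXIN2 25.3% with a second gene model on their own strand, each at 0.13 FPKM or less, and reads in shared bases may have been dropped or split. DKK1 shares 10.2% with PRKG1-AS1, which was at most at 0.33 FPKM.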

How the data were processed

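Total RNA of 15 libraries was used, with groups and days taken from the sample labels. The labels do not say whether the libraries came from 1 differentiation course. The deposited counts are whole reads per Ensembl gene. The authors also gave FPKM, which are those counts over exonic length and library total, and recomputed values differed by at most 0.005. The submitters' processing notes name cutadapt 1.9.1, HISAT2 2.0.1, HTSeq 0.6.1, DESeq2 and the build hg38, and the strand setting is not given in the sources used here. The kit named for these libraries makes long-read libraries while the tools are for short reads, so values per length carry that doubt. Identifiers matched GENCODE release 44 for 60463 of 60605 genes, with identical coordinates for 93.7% of them.

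Single-day ratios used Clopper-Pearson 95% intervals, and a count of 0 was set to 3 counts. Fits across genes used edgeR 4.0.16 in R 4.3.3 (TMM, quasi-likelihood, Benjamini-Hochberg) on the 12 libraries of days 3 to 10, with genes of at least 1 FPKM in any library. An adjusted p under 0.05 was a call. DESeq2 1.42.0, limma 3.58.1 on log2(FPKM + 1), other scalings, filters, pseudocounts and leaving out each day were alternatives. Fits were tested on simulated counts in which 200 genes of passaged cells were changed by 2 on the log2 scale. For passaged cells against NP-ctrl the fit over all days recovered 136 of them, with 3 false calls. The fit of early against late days recovered 45 of 200, with 4 false calls. A member that was not called may therefore still differ. Named were the 10 members, up to 3 genes of each pathway list past a call in each direction, and the 3 genes most like AXIN2, SP5, DKK1 and LEF1. Named after their values were seen were CTNNB1, LGR4 and LGR5 beyond that, WLS in the comparison with IWP2, and WNT3 on days 0 to 2. The members and lists were chosen with earlier results of these data known. RefSeq promoter entries of AXIN2, NKD1, NOTUM and ZNRF3 and the proteins of the members were not analysed here.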

Additional observations from a re-analysis of the deposited data

Results flagged for a closer look

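The difference between 2 arms passed 1 on the log2(FPKM + 1) scale in opposite directions on different days for DKK1 and SP5, in 4 cases. Each value below is the widest distance between such differences, each rests on 1 library per arm and day, and the distance itself was not tested. For DKK1 in NP-IWP2 against NP-ctrl, day 10 lay 2.79 above day 3. For DKK1 in passaged cells against NP-ctrl, day 5 lay 4.53 above day 10, and against NP-IWP2 it lay 6.83 above day 10. For SP5 in passaged cells against NP-IWP2, day 3 lay 3.12 above day 5. No group had the 4 libraries that a check for a stray sample needs.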

How the results depend on the processing

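Single-day values were recomputed with TPM, with median-of-ratios scaling, with totals without mitochondrial genes and with a pseudocount of 0.1. All 188 recomputed values of the 47 single-gene differences past 1 kept their sign, and 185 stayed at least 1. The 3 that did not were AXIN2 on day 3 for passaged cells against NP-ctrl with median-of-ratios scaling (0.93), and NOTUM in passaged cells against NP-IWP2 on day 3 with that scaling (0.99) and without mitochondrial genes (0.98). With median-of-ratios scaling the members called on day 3 were 2 in place of 1 for NP-IWP2 against NP-ctrl and 1 in place of 2 for the passaged arm against NP-ctrl. A pseudocount of 0.1 gave 2 in place of 1 for NP-IWP2 on day 3 against day 2 and against NP-ctrl, 2 in place of 1 against NP-ctrl on day 5, and 1 in place of 0 on day 7. With TPM the median difference of all genes was furthest from 0 for passaged cells against NP-ctrl, at 0.28 on day 3 and -0.38 on day 10.

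Over days 3 to 10, edgeR called 4, 933 and 282 genes for NP-IWP2 against NP-ctrl, passaged against NP-ctrl and passaged against NP-IWP2. DESeq2 called 61, 2150 and 886, limma 0, 163 and 6, the fit with no filter 372, 2571 and 1368, the fits of only 2 arms 277, 109 and 163, and the fit with no block for day 0, 1 and 2. For the first contrast limma had 996 genes and the fit with no block 328 at an unadjusted p under 0.05. Leaving out 1 day at a time gave 0 to 35, 133 to 2373 and 13 to 675 genes; the 0 came without day 5, 7 or 10, where 1030, 297 and 497 genes had an unadjusted p under 0.05, and the highest of each range came without day 3. Without day 5, 7 or 10 the other contrasts gave 283, 133 and 323 genes and 51, 13 and 156. Members called were 3 with no filter for passaged against NP-ctrl (DKK1, LEF1 and NKD1), and 1 (LEF1) for passaged against NP-IWP2 with no filter or without day 3. For the early and late periods edgeR called 1, 701 and 45 genes, DESeq2 88, 1512 and 438 with 1, 1 and 2 members, and median-of-ratios scaling 0 in the first contrast, with 1862 genes at an unadjusted p under 0.05. The causes were not tested. Of values for single genes under all alternatives, 53 single-day values moved by more than their counting interval spans to either side, 9 fitted values passed the threshold newly and 450 did neither. The labels give no replicate numbers; day, the block of these fits, paired the arms. Members near 0 FPKM, such as SP5 after day 5 and RNF43 throughout, are limited by depth. RNF43 may also be understated by reads lost in the exonic bases it shares with a second gene model.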
